A study of Mus musculus with 15 samples.

Results

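The immediate-early genes described here are 10 genes of mouse microglia, namely Fos, Fosb, Fosl2, Jun, Junb, Jund, Egr1, Egr2, Atf3 and Ier3. They were taken by name, with every probe that the array annotation assigns to them, which gave 13 of 45281 probes and 10 of the 19034 genes that have a probe. Ier3 stands among them as an early response gene although its product is a short-lived regulator of survival and not a transcription factor. Of the 10 genes, 9 could be tested, since the probe of Fosb was not above background on any array.

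Immediate-early genes are switched on by kinase cascades without new protein synthesis, usually rise and fall within hours of a stimulus, and encode factors that set the next wave of transcription. FOS proteins pair with JUN proteins through leucine zippers to form the activator AP-1, which binds DNA with a sequence called the AP-1 element, and JUN proteins can also pair with each other or with ATF proteins. EGR proteins bind a separate GC-rich element through zinc fingers. In macrophages and microglia, AP-1 factors and the lineage factor PU.1 occupy many of the same enhancers, and ATF3 is known as a brake on inflammatory transcription after Toll-like receptor signalling.

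RNA was measured on Illumina bead arrays in microglia made from C57BL/6 embryonic stem cells, which stand in culture for the macrophages that live in the brain, all from 1 stem cell source and kept in the same N2-supplemented medium. The groups were cells given interleukin-4 (IL-4, 100 U/ml, 3 arrays), cells given bacterial lipopolysaccharide with interferon-γ (LPS/IFN-γ, 500 and 20 ng/ml, 3 arrays), cells given TGF-β (transforming growth factor-β at 50 ng/ml, 3 arrays) and untreated cells (6 arrays). The design text of the study speaks of triplicates, whereas 6 arrays are labelled untreated, and all 6 were used. Treatment lasted 24 h, so the values show levels long after the stimulus began, and earlier times were not measured. No label states that replicate arrays come from separate cultures, so every p-value measures only a spread between arrays that may be technical. In RNA of whole cultures, fewer cells of a type and less RNA per cell cannot be told apart. A level is the log2 bead signal after background correction and quantile normalization, and a probe was above background where its detection p was under 0.01. Levels of different genes come from different probes and are not set against each other.

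Arrays had 13601 to 14789 probes above background and lay on 3 chips, each with 1 array of every treatment. On LPS/IFN-γ replicate 3, 145 genes read at least 2-fold away from the remaining arrays of the group, a count that was 1 to 33 elsewhere, and member results that rest on this array, and list counts that it moves by over 1.5 times, are given with and without it. Of 12 microglial and macrophage markers, 10 were on the array, and 6 (Aif1, Csf1r, Sall1, Ptprc, Adgre1 and Trem2) were above background on all 15 arrays, whereas Cx3cr1 and Tmem119 were above background on 3 arrays each and P2ry12 on 0. The means of Cx3cr1 and Tmem119 were 6.00 and 6.92 with TGF-β, against 4.70 and 5.06 in untreated cells. They were 4.54 and 4.91 with IL-4 and 4.65 and 5.20 with LPS/IFN-γ. By these levels the arrays above background were those of TGF-β, and the other means are readings at background. These 2 markers thus differed between the groups compared, but they passed the filter through TGF-β alone, so the difference is not independent of it. No neuronal, oligodendrocyte, fibroblast, granulocyte or lymphocyte marker was above background on any array.

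With TGF-β, Fos, Fosl2, Junb and Egr2 rose together, by 2.02-fold to 3.83-fold, and no member fell. With LPS/IFN-γ the members split, with Ier3, Junb and Atf3 higher and Fos, Egr1, Jun and Fosl2 lower. With IL-4 the changes were small, with Ier3, Atf3 and Fosl2 higher, Egr1 lower and no member past 2-fold. In numbers, 4 of 9 members passed an adjusted p of 0.05 in limma with IL-4, beside 12% of all 8558 genes tested, 7 of 9 with LPS/IFN-γ, beside 55.7%, and 4 of 9 with TGF-β, beside 38.8%. Egr1, counted with IL-4 and with LPS/IFN-γ, passed the filter through the untreated and TGF-β arrays, so its calls are not independent of the filter. Called members with at least a 2-fold change numbered 0 of 9 with IL-4, beside 0.631% of all genes, 4 of 9 with LPS/IFN-γ, beside 8.16%, and 4 of 9 with TGF-β, beside 2.75%. Of the 4 with LPS/IFN-γ, Fos and Ier3 stayed past 2-fold without replicate 3, whereas Egr1 was not above background on any LPS/IFN-γ array and fell at least 1.04-fold, and Junb fell short of 2-fold without replicate 3 (a log2 difference of 0.74). Of the 4 with TGF-β, Junb sat at the cutoff (log2 1.02, with lowest values of 0.95 without 1 array and 0.78 under other processing). The lowest value of Fosl2 under other processing was 0.97, whereas Fos and Egr2 stayed past 2-fold throughout. By direction, 3 were higher and 1 lower with IL-4 (5.64% and 6.32% of all genes), 3 higher and 4 lower with LPS/IFN-γ (21.5% and 34.3%), and 4 higher and 0 lower with TGF-β (19.7% and 19.0%). The arrays of treated and untreated cells did not overlap for 4, 7 and 4 of the 9 members with IL-4, LPS/IFN-γ and TGF-β, beside 20.1%, 47.0% and 38.7% of all genes. Without LPS/IFN-γ replicate 3, which enters every fit through the shared spread, 5 members were called with IL-4 (16.5% of all genes), 7 with LPS/IFN-γ (48.2%, with Egr2 in and Fosl2 out) and 4 with TGF-β (43.0%). With IL-4 the count was 2 without IL-4 replicate 1 or without IL-4 replicate 2. The 3 comparisons share the same 6 untreated arrays. Over all genes, 1836 of the 4769 called with LPS/IFN-γ and 1689 of the 3318 called with TGF-β were higher. That split depended on the scaling between arrays, since 2259 of 4528 were higher with LPS/IFN-γ under cyclic loess and 523 of 2594 with TGF-β under scaling by the median. The plot of fold changes by treatment shows the 3 patterns side by side.

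**Figure D1:**
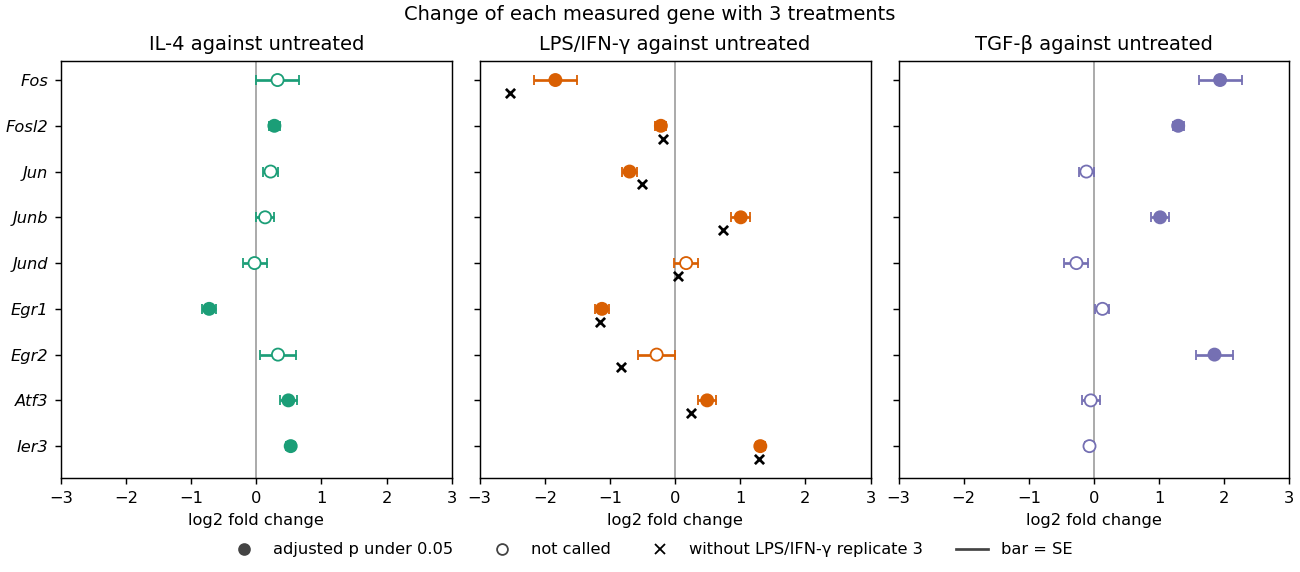
Log2 fold change against untreated cells (x axis) of the 9 measured genes (y axis) with IL-4, LPS/IFN-γ and TGF-β (3 arrays each against 6), with bars for the SE from limma, filled points for adjusted p under 0.05 and crosses for the fit without LPS/IFN-γ replicate 3. Fos, Fosl2, Junb and Egr2 lie right of zero with TGF-β, and with LPS/IFN-γ Fos lies at -1.84 with the replicate and at -2.54 without it.

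The promoter windows of the 4 genes that rose with TGF-β are shown because they are the DNA next to the starts of these genes. Each runs from 250 bases before to 50 bases after the annotated RefSeq start on GRCm38.p6, is written 5′ to 3′ on the strand of the gene, and has matches to the motifs searched in capitals. The windows are chr12:85473640-85473939 (plus strand) for Fos, chr5:32136222-32136521 (plus strand) for Fosl2, chr8:84978699-84978998 (minus strand) for Junb and chr10:67537619-67537918 (plus strand) for Egr2.
Fos: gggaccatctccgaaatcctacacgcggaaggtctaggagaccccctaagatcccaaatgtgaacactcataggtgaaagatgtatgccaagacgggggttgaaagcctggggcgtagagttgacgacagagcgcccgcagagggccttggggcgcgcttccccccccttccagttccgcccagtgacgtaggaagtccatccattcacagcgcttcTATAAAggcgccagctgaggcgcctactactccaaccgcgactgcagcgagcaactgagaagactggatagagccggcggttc
Fosl2: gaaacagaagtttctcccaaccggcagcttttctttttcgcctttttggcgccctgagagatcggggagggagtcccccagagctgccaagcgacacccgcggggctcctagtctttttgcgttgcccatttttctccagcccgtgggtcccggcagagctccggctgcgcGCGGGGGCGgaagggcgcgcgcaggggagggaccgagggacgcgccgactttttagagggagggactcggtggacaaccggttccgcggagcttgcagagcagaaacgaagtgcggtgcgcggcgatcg
Junb: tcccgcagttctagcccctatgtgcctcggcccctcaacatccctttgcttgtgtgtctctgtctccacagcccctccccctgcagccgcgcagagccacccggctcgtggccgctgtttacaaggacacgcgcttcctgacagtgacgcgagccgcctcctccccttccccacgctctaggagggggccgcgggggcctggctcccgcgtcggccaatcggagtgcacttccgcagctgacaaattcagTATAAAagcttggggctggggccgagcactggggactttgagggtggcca
Egr2: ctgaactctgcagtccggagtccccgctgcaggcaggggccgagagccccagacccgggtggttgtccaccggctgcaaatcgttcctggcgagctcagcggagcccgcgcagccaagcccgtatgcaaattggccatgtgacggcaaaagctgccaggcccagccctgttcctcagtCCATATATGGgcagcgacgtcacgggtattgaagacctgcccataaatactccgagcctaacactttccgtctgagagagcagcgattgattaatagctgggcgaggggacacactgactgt
The motifs, searched on both strands, were the TATA box, with the letters TATAAA, GCGNGGGCG (EGR element), the AP-1 element (TGA and TCA with any base between), TGACGTCA (cAMP response element), TTCNNNGAA (interferon-γ activation site), GTCTAGAC (SMAD palindrome) and the CArG box, the element bound by serum response factor. In the Fos window the capitals mark a TATA box whose first base lies at -33 from the start, and in the Junb window a TATA box at 1, the start itself. The Fosl2 window holds an EGR element at -79, and the Egr2 window a CArG box at -72. Among 32851 windows of all genes, 13.6% hold the TATA box letters, 5.55% an EGR element and 1.63% a CArG box. RefSeq lists 5 windows for Egr2, and 4 of them hold a CArG box match, of which 3 are the same site in overlapping windows. None of the printed windows holds the letters of the AP-1 element (7.81% of all windows), the cAMP response element (1.79%), the interferon-γ activation site (8.3%) or the SMAD palindrome (0.213%). These matches are letters in a window, and binding was not measured.

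Fos encodes the founding FOS protein of AP-1. Its probe, for a gene on chromosome 12 (85473890 to 85477274, RefSeq on GRCm38.p6 as for all genes below), read 9.04, 9.06 and 8.97 on the IL-4 arrays, 6.33, 5.98 and 8.27 on the LPS/IFN-γ arrays and 10.62, 10.66 and 10.62 on the TGF-β arrays, against a lowest value of 8.51, a median of 8.67 and a highest value of 8.89 on the untreated arrays. Every TGF-β array lay above, and every LPS/IFN-γ array below, all untreated arrays, and the third LPS/IFN-γ array lay just under the untreated range while the other two lay far below it. The level rose with TGF-β by 1.94 ± 0.33 (log2, SE, adjusted p = 0.000283), or 3.83-fold. It fell with LPS/IFN-γ by 1.84 ± 0.33 (adjusted p = 0.000234), and without LPS/IFN-γ replicate 3 by 2.54 ± 0.11, or 5.82-fold. The IL-4 arrays also all lay above the untreated ones, by 0.33 on average, with an adjusted p of 0.567 that was 0.0287 in the fit without LPS/IFN-γ replicate 3. That array widened the spread shared by all groups for Fos, whose SD was 1.23 on the LPS/IFN-γ arrays, 0.05 on the IL-4 arrays, 0.03 on the TGF-β arrays and 0.15 on the untreated arrays. Within chips, TGF-β minus untreated was 1.75, 2.05 and 1.88, and LPS/IFN-γ minus untreated was -2.55, -2.63 and -0.46.

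Fosl2 encodes FRA-2, a FOS family member without the strong activation domain of FOS. On the brightest of its 3 probes (chromosome 5, 32136472 to 32157840) the IL-4 arrays read 8.26, 8.21 and 8.11, the LPS/IFN-γ arrays 7.75, 7.70 and 7.63 and the TGF-β arrays 9.18, 9.35 and 9.08, against 7.75, 7.89 and 8.17 as the lowest, median and highest untreated arrays. Only the TGF-β arrays kept a clear distance from the untreated ones, since 1 untreated array lay among the IL-4 values, whereas the LPS/IFN-γ arrays lay just under the lowest untreated value. The rise with TGF-β was 1.29 ± 0.09 (adjusted p = 3.1e-08), or 2.45-fold, and it was 1.02, 1.45 and 1.28 within the 3 chips. The smaller changes sat at the threshold. The level was 0.28 ± 0.09 higher with IL-4 (adjusted p = 0.0477), a call lost in 11 of 15 fits that left out 1 array, among them all 3 without an IL-4 array and 5 without an untreated array. It was 0.22 ± 0.09 lower with LPS/IFN-γ (log2 fold change -0.22, adjusted p = 0.0420), a call lost in 9 of 15, among them all 3 without an LPS/IFN-γ array. The other 2 Fosl2 probes were above background on 2 and 0 arrays and were not tested. Fosb, a further FOS family gene on chromosome 7 (19302696 to 19310118), had its lowest detection p at 0.0192 and raw signals of 129.3 to 172.8, so no level can be given.

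**Figure D2:**
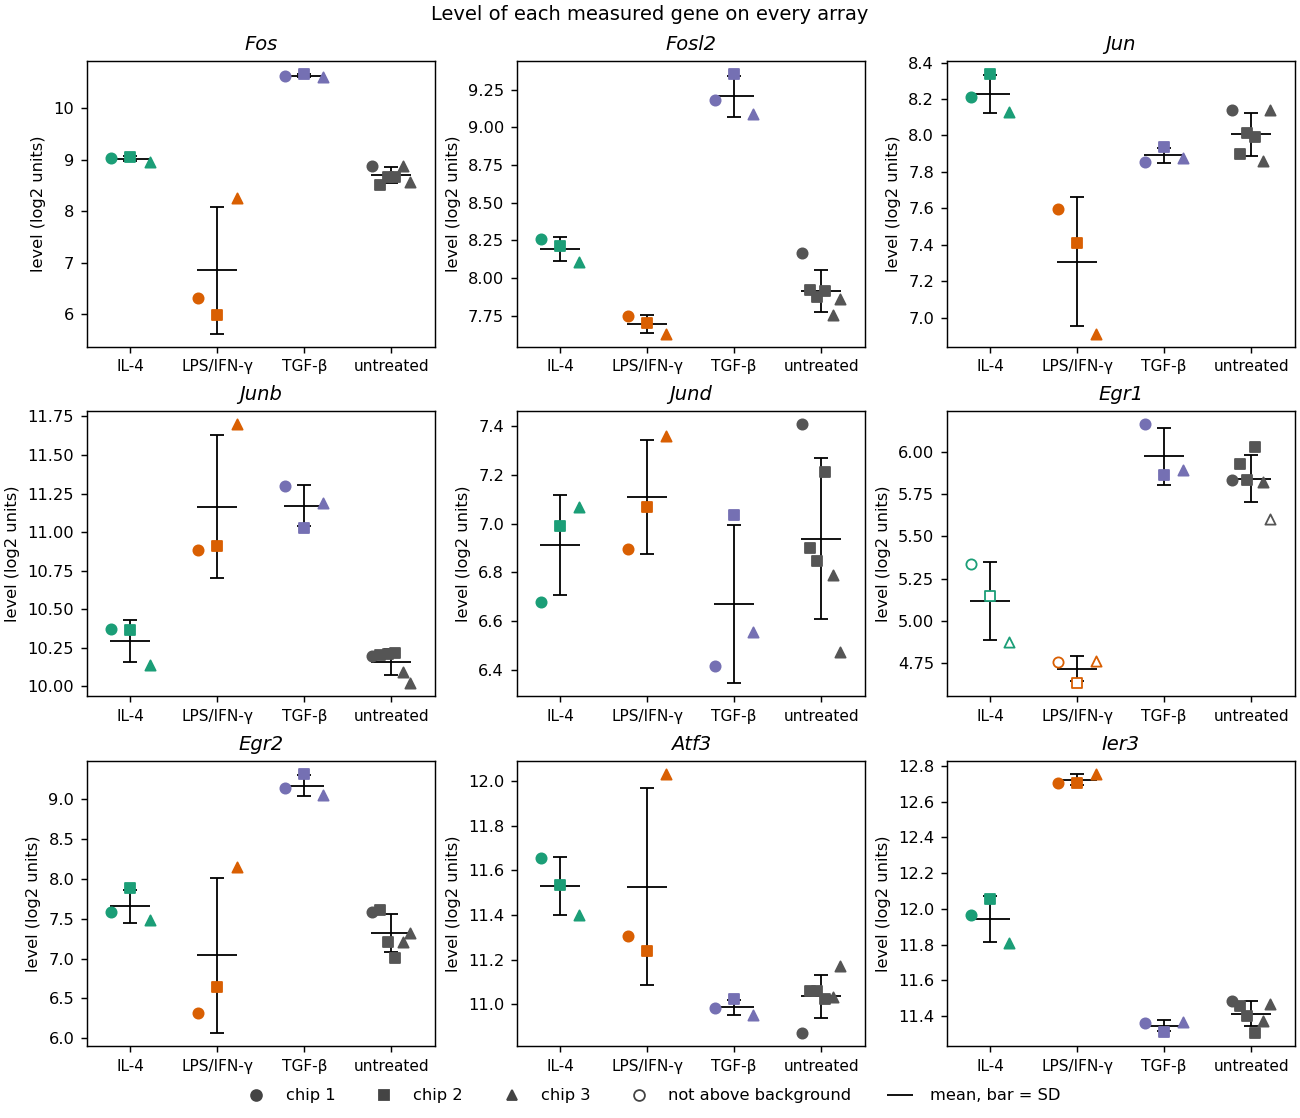
Level (log2 units, y axis, scaled per gene) of the 9 measured genes on each of 15 arrays in the IL-4, LPS/IFN-γ, TGF-β and untreated groups (x axis), with the shape of a point for the chip, open points for arrays not above background, and lines and bars for the mean and SD. The TGF-β arrays lie above all others for Fos, Fosl2 and Egr2, and the third LPS/IFN-γ array (triangle) lies away from the other two for Fos, Jun, Junb, Egr2 and Atf3.

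Junb encodes a JUN protein that binds AP-1 elements and is needed for several macrophage and T cell programmes. Its bright probe (chromosome 8, 84976909 to 84978748) read 10.37, 10.37 and 10.14 on the IL-4 arrays, 10.89, 10.91 and 11.70 on the LPS/IFN-γ arrays and 11.30, 11.03 and 11.19 on the TGF-β arrays, against a lowest value of 10.02, a median of 10.20 and a highest value of 10.22 on the untreated arrays. All LPS/IFN-γ and TGF-β arrays lay above all untreated arrays, and the IL-4 arrays overlapped them. Junb rose with TGF-β by 1.02 ± 0.14 (adjusted p = 5.3e-05), or 2.02-fold. It rose with LPS/IFN-γ by 1.01 ± 0.14 (adjusted p = 2.8e-05), and by 0.74 ± 0.09 (adjusted p = 9.3e-06) once LPS/IFN-γ replicate 3 was left out, so a change of 2-fold there rested on that array. With IL-4 the difference was 0.14 ± 0.14 (adjusted p = 0.586). The second Junb probe, annotated to a separate cDNA, was above background on 0 arrays.

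Jun, the founding JUN protein, went the other way from Junb with LPS/IFN-γ. Its probe (chromosome 4, 95049036 to 95052222) read 8.21, 8.34 and 8.13 on the IL-4 arrays, 7.60, 7.41 and 6.91 on the LPS/IFN-γ arrays and 7.86, 7.94 and 7.88 on the TGF-β arrays, against 7.86, 8.00 and 8.14 as the lowest, median and highest untreated arrays. Only the LPS/IFN-γ arrays lay wholly outside the untreated range. Jun fell with LPS/IFN-γ by 0.70 ± 0.12 (adjusted p = 0.000143), and by 0.50 ± 0.09 without LPS/IFN-γ replicate 3, the lowest of its group. The log2 difference was 0.22 with IL-4 (adjusted p = 0.248) and -0.12 with TGF-β (adjusted p = 0.466). Jund, a JUN protein present in many resting cells, passed in no comparison with untreated cells. Its probe (chromosome 8, 70697739 to 70700616) ranged from 6.68 to 7.07 with IL-4, from 6.90 to 7.36 with LPS/IFN-γ and from 6.42 to 7.03 with TGF-β, against 6.47 to 7.41 in untreated cells, so all groups overlapped. Its untreated SD, 0.33, was the widest of the 9 members, and its differences from untreated were -0.03 with IL-4, 0.17 with LPS/IFN-γ and -0.27 with TGF-β (adjusted p = 0.950, 0.459 and 0.270).

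Egr2 encodes a zinc finger factor known from macrophage differentiation and from nerve myelination. Its probe (chromosome 10, 67534469 to 67542188) read 7.59, 7.89 and 7.49 on the IL-4 arrays, 6.32, 6.65 and 8.15 on the LPS/IFN-γ arrays and 9.14, 9.32 and 9.06 on the TGF-β arrays, against 7.00, 7.26 and 7.61 as the lowest, median and highest untreated arrays. The TGF-β arrays lay above all others, while the LPS/IFN-γ arrays lay on both sides of the untreated range, replicates 1 and 2 below it and replicate 3 above it. Egr2 rose with TGF-β by 1.85 ± 0.28 (adjusted p = 0.000105), or 3.61-fold, and the rise within the 3 chips was 1.56, 2.05 and 1.79. With LPS/IFN-γ the log2 fold change was -0.28 ± 0.28 (adjusted p = 0.415) and, without replicate 3, -0.84 ± 0.16 (adjusted p = 0.000489). With IL-4 it was 0.33 ± 0.28 (adjusted p = 0.486).

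Egr1, a related zinc finger factor that responds to growth factors and depolarisation, was dim. Its probe (chromosome 18, 34861207 to 34864956) was above background on 0 of 3 IL-4, 0 of 3 LPS/IFN-γ, 3 of 3 TGF-β and 5 of 6 untreated arrays, and it passed the filter through the last 2 groups. Calls of Egr1 as lower with IL-4 or LPS/IFN-γ are therefore not independent of the filter, and the counts of called members include them. The arrays read 5.33, 5.14 and 4.87 with IL-4, 4.75, 4.63 and 4.77 with LPS/IFN-γ and 6.16, 5.86 and 5.89 with TGF-β, against 5.60, 5.83 and 6.03 as the lowest, median and highest of the untreated arrays. All IL-4 and all LPS/IFN-γ arrays lay below every untreated array, and the TGF-β arrays overlapped them. Where a group was not above background, the fold is a lower bound that sets each of its arrays at the lowest signal of any probe above background there. Egr1 fell with IL-4 at least 1.11-fold (means of 5.12 and 5.84 in IL-4 and untreated cells, adjusted p = 0.000505). It fell with LPS/IFN-γ at least 1.04-fold (means of 4.72 and 5.84 in LPS/IFN-γ and untreated cells, adjusted p = 4.5e-07). With TGF-β the difference was 0.13 ± 0.11 (adjusted p = 0.361). The fitted fold of 2.18 with LPS/IFN-γ, counted above as past 2-fold, therefore has no measured size beyond its bound.

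Atf3 encodes a bZIP repressor induced by stress and by Toll-like receptors. Its probe (chromosome 1, 191170296 to 191183333) read 11.66, 11.53 and 11.40 on the IL-4 arrays, 11.31, 11.24 and 12.03 on the LPS/IFN-γ arrays and 10.98, 11.02 and 10.95 on the TGF-β arrays, against 10.87, 11.05 and 11.17 as the lowest, median and highest untreated arrays. The IL-4 and LPS/IFN-γ arrays all lay above the untreated ones, replicates 1 and 2 of LPS/IFN-γ by a small margin. Atf3 was 0.49 ± 0.13 higher with IL-4 (adjusted p = 0.0266), which did not pass when IL-4 replicate 1 (adjusted p = 0.121) or IL-4 replicate 2 (adjusted p = 0.0752) was left out, while without LPS/IFN-γ replicate 3 the adjusted p was 0.000349. It rose with LPS/IFN-γ by 0.49 ± 0.13 (adjusted p = 0.00602), and by 0.24 ± 0.08 (adjusted p = 0.0285) once replicate 3 was left out, so most of the size came from that array. With TGF-β the difference was -0.05 (adjusted p = 0.804).

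Ier3, the early response gene of the set that is no transcription factor, had the least spread among untreated arrays (SD 0.07). Its probe (chromosome 17, 35821713 to 35822911) read 11.97, 12.06 and 11.81 on the IL-4 arrays, 12.70, 12.71 and 12.76 on the LPS/IFN-γ arrays and 11.36, 11.31 and 11.36 on the TGF-β arrays, against 11.31, 11.43 and 11.49 as the lowest, median and highest untreated arrays. The IL-4 and LPS/IFN-γ arrays formed 2 separate groups above the untreated arrays, and the TGF-β arrays overlapped these. Ier3 rose with LPS/IFN-γ by 1.31 ± 0.07 (adjusted p = 2.3e-10), or 2.48-fold, and by 1.29 without replicate 3. It rose with IL-4 by 0.53 ± 0.07 (adjusted p = 0.000106), and the log2 difference with TGF-β was -0.07 (adjusted p = 0.439).

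LPS/IFN-γ replicate 3 differed from the other two arrays of its group for some members and not for others. Against the mean of replicates 1 and 2 it was higher by 2.11 for Fos, 1.66 for Egr2, 0.81 for Junb, 0.76 for Atf3 and 0.38 for Jund, and the difference was -0.59 for Jun. For Ier3, Egr1 and Fosl2 it differed by 0.05, 0.07 and -0.10. The array therefore read closer to untreated cells for Fos, farther from them for Junb, Jun and Atf3, and on their other side for Egr2, as the plot of single LPS/IFN-γ arrays shows. On chip 3, where it lay, the IL-4 and TGF-β arrays showed no such shift for Fos, with IL-4 and TGF-β minus untreated within that chip at 0.23 and 1.88. The cause was not tested. With the chip as a block, the same numbers of members were called in all 6 comparisons.

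**Figure D3:**
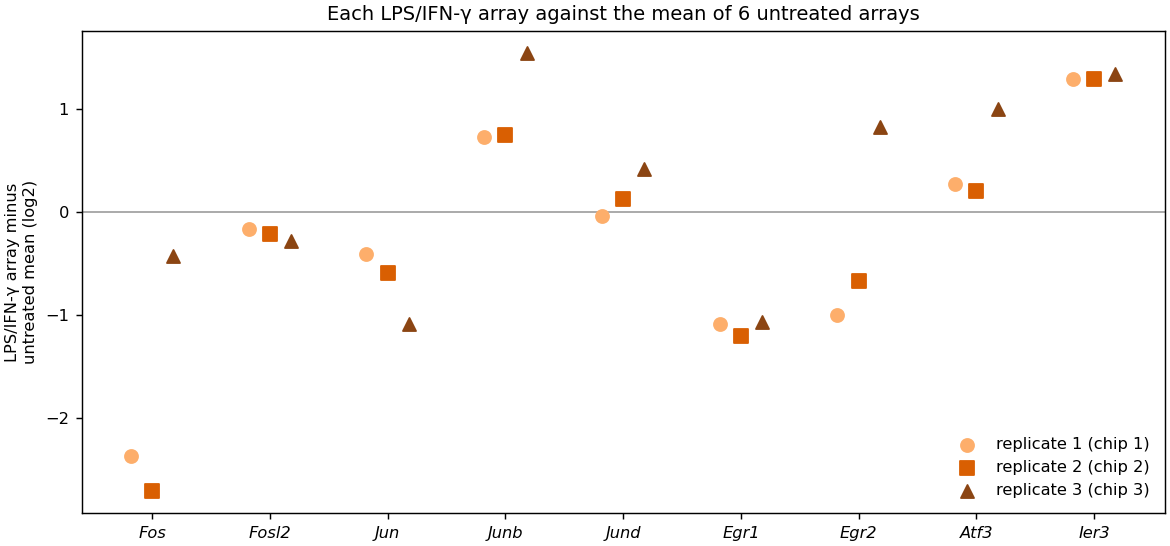
Level of each of the 3 LPS/IFN-γ arrays minus the mean of the 6 untreated arrays (log2, y axis) for the 9 measured genes (x axis), with 1 point per array. Replicate 3 lies 2.11 above the mean of replicates 1 and 2 for Fos and 1.66 above it for Egr2 but within 0.10 of it for Ier3, Egr1 and Fosl2.

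The treatments were also set against each other, with the arrays of LPS/IFN-γ, IL-4 and TGF-β each used in 2 comparisons. Between LPS/IFN-γ and TGF-β, 7 of 9 members were called, beside 55.7% of all genes. Fos differed most, by -3.77 ± 0.38 (LPS/IFN-γ minus TGF-β, adjusted p = 6.6e-07), or -4.48 ± 0.12 without LPS/IFN-γ replicate 3. Egr2 (-2.13 ± 0.33), Fosl2 (-1.51 ± 0.10) and Jun (-0.58 ± 0.14, or -0.39 without that replicate, not called under scaling by the median, adjusted p = 0.0611) were also lower with LPS/IFN-γ, as was Egr1 by at least 1.14-fold, while Ier3 (1.38 ± 0.08) and Atf3 (0.54 ± 0.16, or 0.29 without it, not called when only these 2 groups were fitted, adjusted p = 0.0583) were higher. Junb did not separate these 2 treatments, with means of 11.17 ± 0.47 with LPS/IFN-γ and 11.17 ± 0.14 with TGF-β (SD, n = 3 each, limma adjusted p = 0.975), although without replicate 3 the difference was -0.28 ± 0.10 (adjusted p = 0.0307). Jund, at 0.44 (adjusted p = 0.0931), was called only in the fit without TGF-β replicate 2 (0.0295).

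Between LPS/IFN-γ and IL-4, 6 of 9 members were called, beside 50.8% of all genes. Fos (-2.16 ± 0.38, or -2.87 without LPS/IFN-γ replicate 3), Jun (-0.92 ± 0.14) and Fosl2 (-0.50 ± 0.10) were lower with LPS/IFN-γ, and Junb (0.87 ± 0.16) and Ier3 (0.78 ± 0.08) were higher. Egr1 was called as lower, but no array of either group was above background, so no fold is given. That call, counted among the 6, did not pass when IL-4 replicate 1 was left out (adjusted p = 0.0760). It was also lost under 4 of 14 alternatives. These were no background subtraction (limma adjusted p = 0.0712), a background offset of 50, scaling by the median and another prior on the variance. Atf3 had means of 11.53 ± 0.44 with LPS/IFN-γ and 11.53 ± 0.13 with IL-4 (SD, n = 3 each, limma adjusted p = 0.992), and without LPS/IFN-γ replicate 3 it was 0.26 lower (log2 difference -0.26, adjusted p = 0.0343). Egr2 was likewise called only without that replicate, at -1.17 ± 0.17 against -0.62 ± 0.33 with it.

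Between IL-4 and TGF-β, 7 of 9 members were called, beside 30.5% of all genes. Fos (-1.61 ± 0.38), Egr2 (-1.52 ± 0.33), Fosl2 (-1.01 ± 0.10) and Junb (-0.88 ± 0.16) were lower with IL-4, as was Egr1 by at least 1.22-fold. Ier3 (0.60 ± 0.08) and Atf3 (0.54 ± 0.16) were higher with IL-4, and Atf3 did not pass when IL-4 replicate 1 was left out (adjusted p = 0.0599). Jun was 0.34 higher with an adjusted p of 0.0755, and of 0.00959 without LPS/IFN-γ replicate 3.

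By mean level, the order of the groups differed between members. For Fos and Egr2 it ran from TGF-β (10.63 and 9.17) through IL-4 (9.03 and 7.66) and untreated (8.70 and 7.32) to LPS/IFN-γ (6.86 and 7.04), and the neighbours IL-4 and untreated did not differ beyond the shared spread for either gene, nor did untreated and LPS/IFN-γ for Egr2. For Ier3 it ran from LPS/IFN-γ (12.72) through IL-4 (11.94) to untreated (11.41) and TGF-β (11.35), of which untreated and TGF-β did not separate. For Junb, TGF-β (11.17) and LPS/IFN-γ (11.17) stood together above IL-4 (10.29) and untreated (10.16), which did not separate either. For Atf3, IL-4 (11.53) and LPS/IFN-γ (11.53) stood above untreated (11.04) and TGF-β (10.99). These orders include LPS/IFN-γ replicate 3. Without it, LPS/IFN-γ was called lower than IL-4 for Atf3 (log2 difference -0.26, limma adjusted p = 0.0343) and lower than TGF-β for Junb (-0.28, 0.0307). Egr2 was then lower with LPS/IFN-γ than in untreated cells (-0.84, 0.000489), and Fos higher with IL-4 than in untreated cells (0.33, 0.0287).

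Among the other genes of these pathways, the bZIP genes outside the set (further AP-1, ATF, CREB, MAF and C/EBP genes) were mostly higher with LPS/IFN-γ. Of 19 measured, 15 were higher and 1 lower, with a median log2 fold change of 0.47 against -0.08 over all genes, of which 21.5% were higher and 34.3% lower. Batf2, which pairs with JUN proteins in interferon-activated macrophages, rose at least 34.6-fold with LPS/IFN-γ (adjusted p = 2.2e-11), a bound because no untreated array was above background. Batf2, among the 15 higher, passed the filter through the LPS/IFN-γ arrays alone, so its call is not independent of the filter. Ddit3, the stress factor CHOP, rose by 2.20 ± 0.12, and Cebpa, a myeloid lineage factor, was lower (means of 4.87 and 5.76 in LPS/IFN-γ and untreated cells, adjusted p = 0.000260), with no fold given because no LPS/IFN-γ array was above background and the bound was under 1. With TGF-β, 5 of the 19 were higher and 4 lower, beside 19.7% and 19.0% of all genes, with a median of 0.09. Maff, a small MAF protein, and Cebpa were called higher, with means of 6.26 and 6.43 in TGF-β cells and 5.35 and 5.76 in untreated cells (adjusted p = 0.000366 and 0.00407). Only 2 of 6 untreated arrays were above background for Maff and 4 of 6 for Cebpa, so the size of these rises is uncertain. With TGF-β, Ddit3 fell by 1.06 ± 0.12 and the stress factor Atf5 fell by 1.13 ± 0.13. With IL-4, 1 of the 19 was higher, Bach1, a repressor of heme and antioxidant genes (1.36 ± 0.32, lost without IL-4 replicate 1 or 3), and 1 was lower, Cebpb, a factor of inflammatory macrophages (-0.31 ± 0.06, not called under scaling by the median or with the replicate number as a block), beside 5.64% and 6.32% of all genes. Without LPS/IFN-γ replicate 3, 3 of the 19 were higher and 1 lower with IL-4.

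Serum response factor and its partners activate Fos and the Egr genes through the CArG box, and EGR factors are held in check by the NAB proteins. The probe of Egr3, a further EGR gene, read 7.45, 7.63 and 7.20 on the TGF-β arrays and 4.73, 4.55 and 4.76 on the LPS/IFN-γ arrays, against 5.61 to 6.04 on the untreated arrays, so neither treatment overlapped untreated cells. Egr3 rose with TGF-β by 1.58 ± 0.14 (adjusted p = 4.5e-07), with 4 of 6 untreated arrays above background. With LPS/IFN-γ it was not above background on any array and fell at least 1.04-fold (adjusted p = 3.9e-06). Nab2 was 0.37 ± 0.12 higher with TGF-β (lost without TGF-β replicate 1 and under scaling by the median), and Srf itself was lower, by -0.38 ± 0.13 with TGF-β (lost without replicate 1 or 3, without the filter and with the replicate block) and -0.57 ± 0.13 with LPS/IFN-γ (-0.32 without LPS/IFN-γ replicate 3). Over the list of 6 measured genes, 3 were higher and 1 lower with TGF-β (19.7% and 19.0% of all genes), 3 higher and 2 lower with LPS/IFN-γ (21.5% and 34.3%), and 0 passed with IL-4 (12% in either direction). The higher ones with LPS/IFN-γ include Rbpj, the DNA-binding effector of Notch and no cofactor of serum response factor (at least 1.42-fold), and Nab1 (0.52 ± 0.13), whose other 4 probes were not called. Rbpj passed the filter through the LPS/IFN-γ arrays alone, so its call is not independent of the filter.

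**Figure D4:**
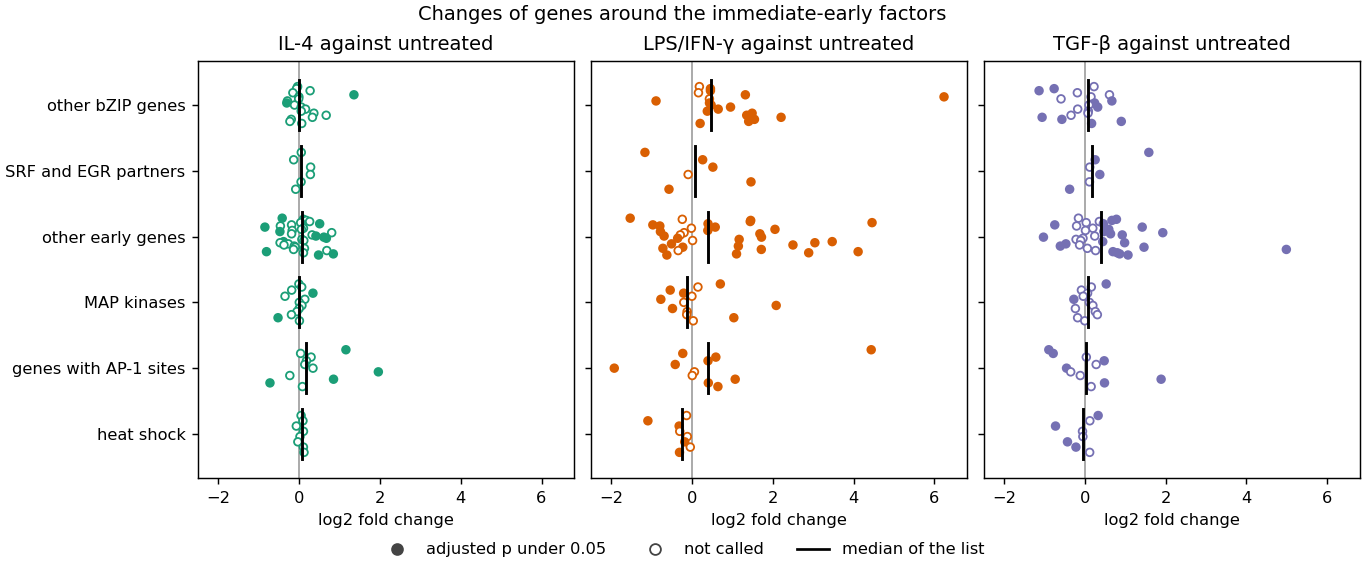
Log2 fold change against untreated cells (x axis) of each measured gene in 6 related lists (y axis) with IL-4, LPS/IFN-γ and TGF-β, with filled points for adjusted p under 0.05, open points for genes not called and a black line for the median of a list. The bZIP genes outside the set lie mostly right of zero with LPS/IFN-γ (median 0.47), and the early response genes have medians of 0.39 with LPS/IFN-γ and 0.40 with TGF-β.

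Other immediate-early and early response genes numbered 34. With TGF-β, 17 were higher and 4 lower, beside 19.7% and 19.0% of all genes (median 0.40, against -0.00 over all genes). The highest were Sgk1, a kinase gene induced by serum and glucocorticoids, which rose at least 24.5-fold (10.28, 10.29 and 10.36 on the TGF-β arrays, and not above background in untreated cells), and Id2, an inhibitor of helix-loop-helix factors, which rose by 1.93 ± 0.35. The phosphatase gene Dusp2 (-0.75 ± 0.11) and the Krüppel-like factor gene Klf2 (-1.03 ± 0.16) fell. With LPS/IFN-γ, 18 were higher and 10 lower, beside 21.5% and 34.3% (median 0.39). These included the chemokine gene Cxcl2 (at least 9.26-fold) and the cytokine gene Tnf (4.11 ± 0.11) among the higher, and Dusp2 (-0.97 ± 0.11) and the neuronal early gene Arc (-1.53 ± 0.12, with 1 of 3 arrays above background) among the lower. Cxcl2 passed the filter through the LPS/IFN-γ arrays alone, so its call is not independent of the filter. With IL-4, 6 were higher and 5 lower, beside 5.64% and 6.32% (median 0.06), and without LPS/IFN-γ replicate 3, 7 were higher and 8 lower. Klf4, a factor of alternatively activated macrophages, rose by 0.67 ± 0.11, and Zfp36, which speeds mRNA decay, by 0.85 ± 0.22 (lost without any 1 of the 3 IL-4 arrays and with the replicate block), while Tnf fell by 0.81 ± 0.11 and the phosphatase gene Dusp6 fell by 0.85 ± 0.11, a call its other probe did not make (-0.27, adjusted p = 0.418).

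MAP kinases act upstream of AP-1. Of 13 measured genes, 1 was higher and 1 lower with IL-4 (5.64% and 6.32% of all genes), 3 were higher and 4 lower with LPS/IFN-γ (21.5% and 34.3%), and 1 was higher and 1 lower with TGF-β (19.7% and 19.0%), with medians of 0.00, -0.12 and 0.07. Without LPS/IFN-γ replicate 3 the counts were 1 higher and 2 lower with IL-4, 4 higher and 3 lower with LPS/IFN-γ and 2 higher and 2 lower with TGF-β. With LPS/IFN-γ, Map3k8, the kinase TPL2 that links Toll-like receptors to ERK, rose by 2.08 ± 0.17 and Mapkapk2, the p38 target kinase, by 1.04 ± 0.12, while Map2k3 (-0.54 ± 0.06) and Map3k1 (-0.77 ± 0.08) fell. With IL-4, Map2k4 was higher (0.34 ± 0.07, lost under scaling by the median) and Mapkapk2 lower (-0.52 ± 0.12, lost without IL-4 replicate 3 and with the replicate block). With TGF-β, Map2k1 (0.53 ± 0.18) and Map3k1 (-0.27 ± 0.08) passed, and both calls were lost when single arrays were left out (5 and 2 of 15 fits). Map2k1 was also lost under scaling by the median and without the filter, and Map3k1 with the mean of its probes and with the replicate block. The other Map3k1 probe was not called with TGF-β (-0.13, limma adjusted p = 0.286).

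Genes long known for AP-1 sites in their promoters numbered 11. With TGF-β, 3 were higher and 3 lower, beside 19.7% and 19.0% of all genes (median 0.04). Plau, which encodes urokinase, rose by 1.89 ± 0.20 and Plaur, its receptor, by 0.49 ± 0.16 (lost without TGF-β replicate 2 or 3, under scaling by the median and with the replicate block), whereas Ccnd1, cyclin D1, fell by 0.78 ± 0.07 and the chemokine gene Ccl2 fell at least 1.25-fold, a call lost with no background subtraction and in the authors' log2 table. With LPS/IFN-γ, 6 were higher and 3 lower, beside 21.5% and 34.3% (median 0.40), and 5 were higher and 2 lower without LPS/IFN-γ replicate 3. The higher genes were led by Ccl2 (4.44 ± 0.21) and Plau (1.07 ± 0.20), with Mmp12, macrophage elastase, at least 2.36-fold lower and Itgax at -0.42 ± 0.15, a call lost in 5 of 15 fits without 1 array. With IL-4, 3 were higher and 1 lower, beside 5.64% and 6.32% (median 0.18). The collagenase gene Mmp13 rose by 1.96 ± 0.15 and Ccl2 by 1.16 ± 0.21, and Plaur fell by 0.72 ± 0.16 (adjusted p = 0.00904, or 0.0708 with the replicate block).

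Heat shock genes and markers of other cells were looked at beside these results. Of 8 measured heat shock genes, 0 were higher and 4 lower with LPS/IFN-γ, beside 21.5% and 34.3% of all genes. Without LPS/IFN-γ replicate 3 only Dnajb1 was lower (-0.87, and -1.09 ± 0.13 with it), and Hsp90aa1 (-0.32 ± 0.11) was also lost without replicate 1. The other Hsp90aa1 probe was not called with LPS/IFN-γ (-0.17, limma adjusted p = 0.356). With TGF-β, Bag3 was higher (0.33 ± 0.06, but 0.09 and not called under scaling by the median, adjusted p = 0.692) and 3 were lower (19.7% and 19.0% of all genes), among them Hspd1 (-0.43 ± 0.06) and Hsp90aa1 (-0.73 ± 0.11), and 0 passed with IL-4. The log2 of the summed unlogged levels of the list was 15.57 to 15.65 with IL-4, 15.29 to 15.49 with LPS/IFN-γ and 15.42 to 15.45 with TGF-β, against 15.52 to 15.63 in untreated cells. The same sum for the microglial markers was 13.63 to 13.94 with IL-4, 13.55 to 13.77 with LPS/IFN-γ and 13.97 to 14.08 with TGF-β, against 13.42 to 13.50 in untreated cells, so it moved with the treatments. It is weighted to the brightest markers, which did not all move alike. With LPS/IFN-γ the mean of Adgre1 was 12.83, against 12.04 in untreated cells, and that of Trem2 was 11.60, against 12.30. Of 5 endothelial markers, Pecam1, Cdh5, Kdr and Tek were above background on no array, and Vwf was above background on all, with means of 7.76 with IL-4, 6.89 with LPS/IFN-γ and 9.44 with TGF-β, against 7.77 in untreated cells. Of 5 stem cell markers, Pou5f1 was above background on 4 arrays and the other 4 on none, and of 5 astrocyte markers, Slc1a2 was above background on all arrays, Aldh1l1 on 9 and Gfap, Aqp4 and Slc1a3 on none. The part of these genes in the changes of the members was not tested.

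Across the 15 arrays, which share treatments and chips, the members did not follow a single pattern. Pearson correlations of log2 level, given as descriptions, were 0.876 between Fos and Egr2, 0.877 between Fosl2 and Egr2 and 0.815 between Fos and Fosl2. Without LPS/IFN-γ replicate 3 they were 0.905, 0.960 and 0.822. Junb, which also rose with TGF-β, correlated less with these genes, at 0.107 with Fos, 0.384 with Fosl2 and 0.512 with Egr2. Those values were 0.209, 0.692 and 0.534 without that array. Jun and Junb ran against each other (-0.726, or -0.539 without LPS/IFN-γ replicate 3). Egr1 and Ier3 (-0.926, or -0.919 without it) and Fos and Ier3 (-0.735, or -0.792 without it) did so too. The 3 genes most like each member over the same 15 arrays were then listed, with predicted gene models (Gm, Rik and LOC names) left out. For Fos they were Cdk5r1 (0.967), Rgs10 (0.963) and Zfp36l1 (0.960), and for Fosl2 they were Scgb1a1 (0.980), Dock6 (0.972) and Cotl1 (0.971). For Egr2 they were Bhlhe40 (0.976), Rftn1 (0.947) and Lrrfip1 (0.941). These lists share no gene, although the 3 members correlate with each other. For Junb they were Furin (0.962), Tent5c (0.961) and C1qc (0.958), and for Jun they were Nrros (0.965), Uqcr11 (0.963) and Cbx8 (0.959). For Ier3 they were Aif1 (0.975), Ccl2 (0.973) and Focad (0.973), and for Atf3 they were Cish (0.925), Nuak2 (0.906) and Slc7a2 (0.890). Without LPS/IFN-γ replicate 3 the Atf3 values were 0.950, 0.823 and 0.765. For Egr1 they were Fmnl1 (0.939), Cracr2b (0.930) and Atg9b (0.913). Jund, which was not called against untreated cells, had the loosest matches, with Ptpn11 (0.810), Iqgap3 (0.788) and Swsap1 (0.759).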

How the data were processed

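The deposited table holds intensity values, the mean bead signal of 45281 probes on 15 arrays with no background subtracted, and, per the file headers, a detection p-value for each signal. A second table by the authors holds log2 values and served as an alternative. Partek is named per the submitters' processing notes, with its version and its steps not given in the sources used here. Signals were corrected with neqc (offset 16), quantile-normalized and set on a log2 scale (R 4.3.3, limma 3.58.1). The filter asked for a detection p under 0.01 on 3 or more of the 15 arrays and left 15434 probes, of which 13307 had 1 current symbol through the platform annotation and the RefSeq gene table (GRCm38.p6). The brightest probe stood for a gene, which left 8558 genes. A model with 4 group means was fitted with limma (lmFit, eBayes, two-sided), with Benjamini-Hochberg adjustment over all genes of a comparison. The number of arrays limits precision, and the median SE against untreated was 0.101.

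Members and gene lists were chosen with earlier results of these data known. The text names all members, the 2 highest and the 2 lowest called genes of each list and comparison, and the 3 genes most like each member. Genes without a current symbol were left out, and predicted gene models (Gm, Rik and LOC names) were skipped among the genes named. Alternatives covered background correction, scaling, the authors' table, the filter, which probe stands for a gene, blocks for chip and for replicate number, array weights, the prior on the variance, the groups fitted and each array left out. The fit was tested on simulated data.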

Additional observations from a re-analysis of the deposited data

How the results depend on the processing

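Of the 756 values of single members under 14 alternatives, 725 kept their direction or stayed uncalled on the same side of the threshold, 24 lost their call, 7 gained a call and 0 reversed. Leaving out each array changed 24 to uncalled and 8 to called among 810. With TGF-β, Fos, Fosl2, Junb and Egr2 stayed called in every alternative and every fit without 1 array. Genes called with IL-4 (1024) became 345 under scaling by the median, 1767 in the authors' table and 459 with the replicate number as a block, and members called (4) became 2 under scaling by the median, without the filter and with the block. Genes called became 2786 of 4346 between LPS/IFN-γ and IL-4 and 1294 of 2607 between IL-4 and TGF-β under scaling by the median. The cause was not tested. That scaling moved the median of all genes to -0.11 with IL-4, -0.15 with LPS/IFN-γ and -0.19 with TGF-β. Higher calls were 582 of 981 with IL-4 under cyclic loess, and 777 of 1294 between IL-4 and TGF-β and 1914 of 3307 between LPS/IFN-γ and TGF-β under scaling by the median. Fosl2 lost its calls with IL-4 and with LPS/IFN-γ under 7 and 8 of the 14, and Atf3 with IL-4 under scaling by the median, no filter and the block. Among the other genes named, 29 of 725 such values lost their call under the alternatives and 25 of 780 without 1 array, none reversed, and genes detected on under 6 arrays have no value under the stricter filter. Array weights called Egr2 lower with LPS/IFN-γ (-0.65, adjusted p = 0.0145).

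Without 1 array, genes called ranged from 594 (without IL-4 replicate 1) to 1410 (without LPS/IFN-γ replicate 3) with IL-4, 4124 to 4794 with LPS/IFN-γ, 2710 to 3682 with TGF-β, 3893 to 4363 between LPS/IFN-γ and IL-4, 4346 to 4788 between LPS/IFN-γ and TGF-β and 2050 to 3024 between IL-4 and TGF-β. Without IL-4 replicate 3 the first count was 603. Members called ranged from 2 (without IL-4 replicate 1 or 2) to 5 with IL-4, 6 to 7 with LPS/IFN-γ, 4 to 4 with TGF-β, 5 to 8 between LPS/IFN-γ and IL-4, 7 to 8 between LPS/IFN-γ and TGF-β and 6 to 8 between IL-4 and TGF-β. Deviations of arrays with the same replicate number correlated at -0.19 to 0.36 over 18 pairs (median 0.165, against -0.04 for different numbers). Since not every pair was above 0.1, the numbers were not taken as a pairing. The negative pairs all held TGF-β replicate 2 or 3. TGF-β replicate 3 correlated at 0.29 with IL-4 replicate 2 and at 0.28 with LPS/IFN-γ replicate 2. TGF-β replicate 2 correlated at 0.33 with IL-4 replicate 3 and at 0.21 with LPS/IFN-γ replicate 3. A pairing across numbers was not tested, and the replicate block used the numbers as they stand. The number of arrays limits small changes, and Egr1 and Fosb are limited by signal over background.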
